A study of Mus musculus with 8 samples.

Results

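The genes described here encode the enzymes, chaperones and proteinases that hydroxylate, fold, export and trim collagen. They were chosen by name, with earlier results of these data known, as a list of 33 mouse genes grouped by their step in collagen synthesis. Of these 33 genes, 30 were measured by a probe set of their own on the arrays, out of 22184 genes in the whole series. Colgalt2 was dim (mean 3.69 on the log2 scale) and was not tested, which left 29 of 16638 genes tested. Plod3 shared its probe set with Mir702, and the expression of Plod3, Adamts2 and Fkbp10 was not analysed here.

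Expression was measured on 8 arrays from the aorta of newborn (postnatal day 0) mice on an albino C57BL/6J background. The 4 groups were Lox knockout (KO) ascending aorta, wild-type (WT) ascending aorta, KO descending aorta and WT descending aorta, with 2 arrays each. Lox encodes lysyl oxidase, the enzyme that oxidises lysines of collagen and elastin so that they can cross-link, and per the labels the knockout was of the whole body. Each array held RNA pooled from 8 pups of 1 genotype. The ascending piece ran from the aortic valve to the ductus arteriosus and the descending piece ended at the diaphragm. The labels name neither the litters nor the sex of the pups, and nothing says that a pair of pools came from separate litters. The p-values therefore measure the spread between pools. The fit treated all 8 pools as independent, and the sample titles do not say whether ascending and descending pools came from the same pups. All values are log2 intensities from RMA, a method that corrects, normalises and summarises Affymetrix probes, so 1 unit is a doubling. They compare 1 gene between arrays and not 1 gene with another. Medians of the 8 arrays lay between 5.11 and 5.19, and replicate arrays correlated at 0.9912 to 0.994 across genes.

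A new collagen chain is modified in the endoplasmic reticulum before it folds. Prolyl 4-hydroxylase adds the hydroxyl groups that keep the triple helix stable at body temperature, lysyl hydroxylases modify the lysines that lysyl oxidase later acts on, and chaperones hold the helix until export. Outside the cell, N- and C-proteinases remove the propeptides, after which the molecules assemble into fibrils. In the aorta, smooth muscle cells and adventitial fibroblasts make most of this matrix.

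Lox itself followed the labels. Its log2 intensity was 8.87 and 8.74 in KO ascending aorta, against 11.47 and 11.60 in WT ascending aorta. It was 8.56 and 8.51 in KO descending aorta, against 11.41 and 11.24 in WT descending aorta. The difference was -2.73 (SE 0.11, adjusted p = 5.34e-05) in the ascending and -2.80 (SE 0.11, adjusted p = 4.42e-05) in the descending segment, from limma's moderated test with Benjamini-Hochberg adjustment over all genes tested, as are all adjusted p-values here.

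Over both segments together, 10 of 29 members rose in KO aorta and 1 fell, at an adjusted p under 0.05. Among all genes tested, 6.21% were called higher and 5.22% lower. The members that rose were the 3 catalytic subunits of prolyl 4-hydroxylase (P4ha1, P4ha2, P4ha3), the lysyl hydroxylase Plod2, the galactosyltransferase Colgalt1, the chaperone Serpinh1, the isomerases Fkbp11 and Fkbp14, the C-proteinase enhancer Pcolce and the transglutaminase Tgm2. The member that fell was Pcolce2. The median log2 difference was 0.20 over the members and 0.00 over all genes tested. Fits without 1 array called fewer of all genes tested, as well as fewer members. Of these 11 calls, those of P4ha1, P4ha3, Plod2, Fkbp11 and Fkbp14 were kept when any 1 array was left out. The count of called members was 5 without WT descending replicate 1 and 7 without KO ascending replicate 2, WT ascending replicate 2 or KO descending replicate 1.

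**Figure D1:**
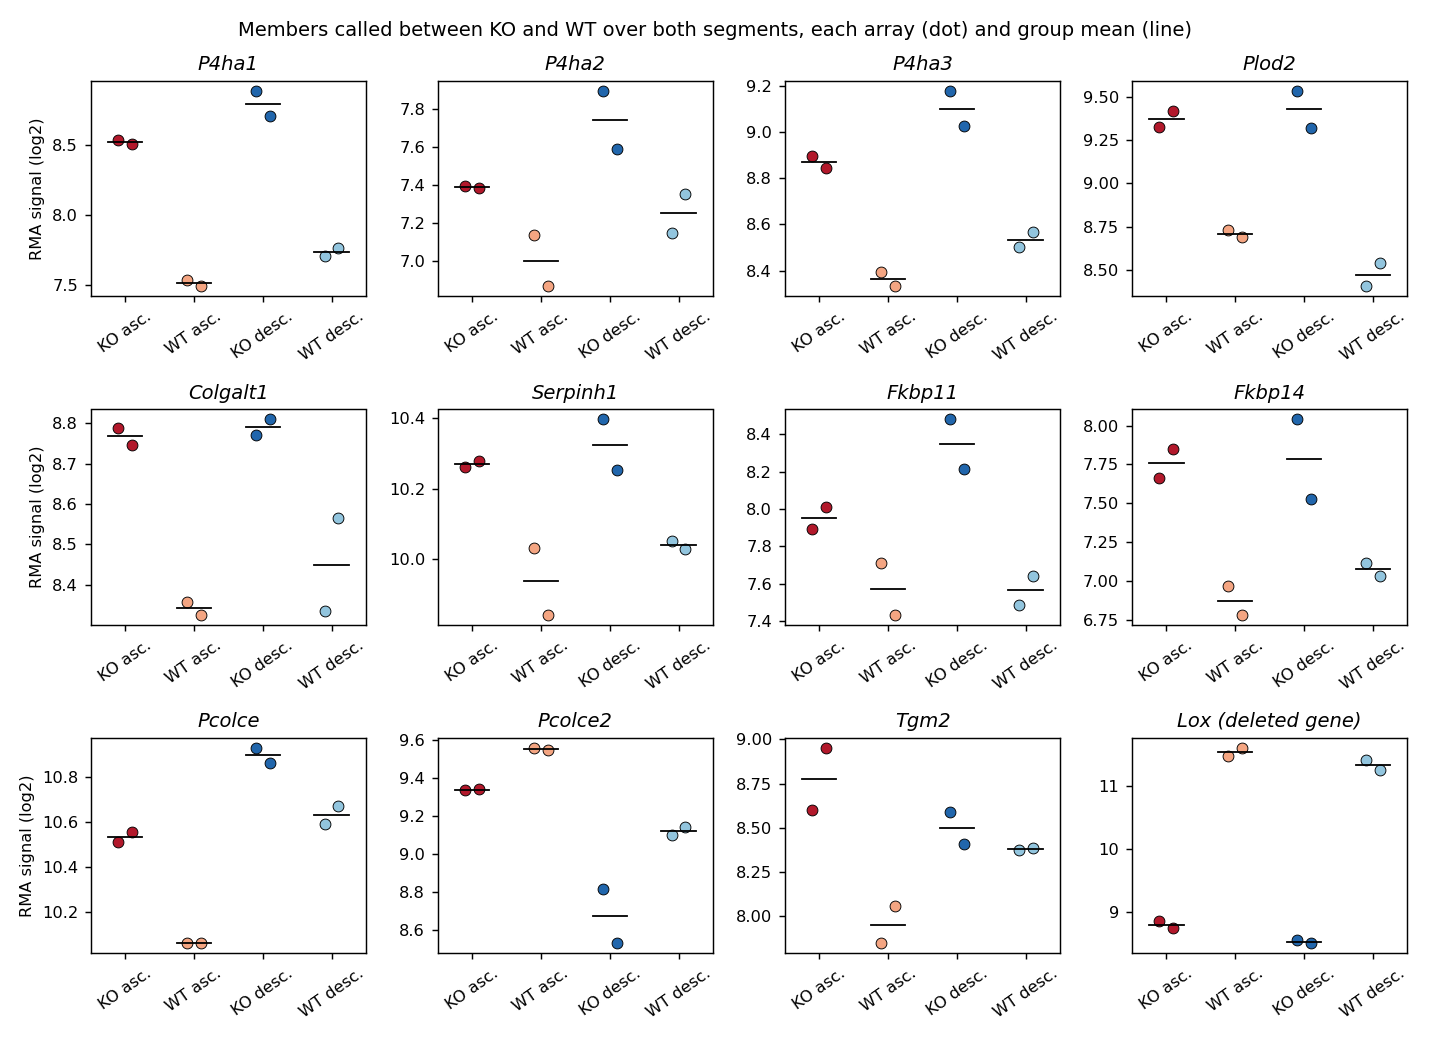
Log2 RMA signal of the 11 members called in KO against WT aorta over both segments, and of Lox, with 1 dot per array and a line at the mean of each group of 2 arrays. The vertical axes differ and do not start at 0. P4ha1 and Plod2 were higher in each of the 4 KO arrays than in any of the 4 WT arrays, and Pcolce2 had lower KO than WT arrays in each segment.

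All 3 catalytic subunits of prolyl 4-hydroxylase rose. The enzyme is a tetramer of catalytic alpha subunits, encoded by P4ha1, P4ha2 and P4ha3, with the beta subunit P4hb, which is also the protein disulfide isomerase of the endoplasmic reticulum. P4ha1, the main alpha subunit of most cells, had log2 intensities of 8.54 and 8.51 in KO ascending aorta, against 7.53 and 7.49 in WT ascending aorta. P4ha1 was at 8.89 and 8.71 in KO descending aorta, against 7.70 and 7.76 in WT descending aorta. All KO arrays of P4ha1 thus lay above all WT arrays, whichever the segment. P4ha1 was 2.02-fold higher in the ascending (log2 difference 1.01, SE 0.10, adjusted p = 0.00527) and 2.09-fold higher in the descending aorta (1.06, SE 0.10, adjusted p = 0.00517). The descending call of P4ha1 was lost without WT descending replicate 1 (1.04, adjusted p = 0.0603).

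P4ha3 was at 8.90 and 8.84 in KO ascending aorta, against 8.40 and 8.33 in WT ascending aorta. P4ha3 was at 9.18 and 9.02 in KO descending aorta, against 8.50 and 8.57 in WT descending aorta. The 4 KO arrays again lay above the 4 WT arrays. The log2 difference of P4ha3 was 0.51 in the ascending (SE 0.10, adjusted p = 0.0445), 0.57 in the descending (SE 0.10, adjusted p = 0.037) and 0.54 over both segments (SE 0.07, adjusted p = 0.00494). Leaving out any 1 of the 8 arrays ended both single-segment calls of P4ha3, with adjusted p-values up to 0.178 in the ascending and 0.204 in the descending aorta, while the call over both segments remained.

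P4ha2 was at 7.40 and 7.38 in KO ascending aorta, against 7.13 and 6.86 in WT ascending aorta. P4ha2 was at 7.90 and 7.59 in KO descending aorta, against 7.15 and 7.35 in WT descending aorta. The groups did not overlap within a segment, with a smaller gap than for P4ha1. Over both segments P4ha2 was 1.36-fold higher (log2 difference 0.44, SE 0.10, adjusted p = 0.0292), and neither segment passed alone (adjusted p = 0.192 in the ascending and 0.12 in the descending aorta). That call of P4ha2 was lost without either KO ascending array, WT ascending replicate 2, KO descending replicate 1 or WT descending replicate 1 (adjusted p = 0.0707 to 0.104). The beta subunit P4hb was not called: it was at 11.01 and 11.03 in KO ascending aorta, against 10.84 and 10.82 in WT ascending aorta, and at 11.11 and 11.05 in KO descending aorta, against 10.86 and 10.86 in WT descending aorta. The KO arrays of P4hb lay above the WT arrays, and the log2 difference over both segments was 0.20 (95% interval 0.05 to 0.35, adjusted p = 0.089). P4hb was called with a filter at the 50th percentile of mean intensity (adjusted p = 0.0484) and with a trended and robust prior (0.00817).

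The promoters of the 3 alpha subunit genes are shown because these genes moved together and because P4HA1 and P4HA2 are known, in human and rodent cells, as targets of the hypoxia-inducible factor HIF-1. The sequences are from RefSeq on GRCm38.p6, 250 bases before to 50 after the start, plus strand, 5′ to 3′, with the core letters that HIF-1 recognises, ACGTG or GCGTG on either strand, in capitals. P4ha1 lies at chr10:59323046-59323345, P4ha2 at chr11:54100674-54100973 and P4ha3 at chr7:100285270-100285569.
P4ha1: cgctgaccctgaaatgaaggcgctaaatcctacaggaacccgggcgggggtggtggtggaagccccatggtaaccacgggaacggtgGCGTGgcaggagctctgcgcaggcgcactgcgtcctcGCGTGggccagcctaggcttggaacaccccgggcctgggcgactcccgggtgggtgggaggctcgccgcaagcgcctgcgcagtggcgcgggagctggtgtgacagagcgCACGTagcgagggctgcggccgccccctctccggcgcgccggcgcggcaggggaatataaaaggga
P4ha2: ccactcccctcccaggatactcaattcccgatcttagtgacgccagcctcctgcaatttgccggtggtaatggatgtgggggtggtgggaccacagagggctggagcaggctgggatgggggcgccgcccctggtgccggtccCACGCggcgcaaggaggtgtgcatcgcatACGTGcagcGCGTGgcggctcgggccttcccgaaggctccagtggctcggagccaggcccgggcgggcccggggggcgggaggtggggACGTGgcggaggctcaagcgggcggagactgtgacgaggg
P4ha3: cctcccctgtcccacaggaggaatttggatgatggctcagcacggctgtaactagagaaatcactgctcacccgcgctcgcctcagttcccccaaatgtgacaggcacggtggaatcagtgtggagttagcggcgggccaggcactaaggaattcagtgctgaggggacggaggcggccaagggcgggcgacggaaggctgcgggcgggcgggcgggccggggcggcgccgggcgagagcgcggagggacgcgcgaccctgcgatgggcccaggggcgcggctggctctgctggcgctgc

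The P4ha1 window held 3 matches and the P4ha2 window 4, while these letters are not in the P4ha3 window. Of 25 members with a promoter entry, 19 held a match in any of their entries (76%). The share was 61% of the 12890 genes tested that have an entry, counted in the same way. Counted per promoter and not per gene, it was 43.8% of all 32851 promoters of this length. Among the members that rose, 7 of 8 with an entry held a match in any entry, as did 11 of 15 of the other tested members. A match is a description of letters and not a binding site, and control of these genes by HIF-1 was not tested.

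The prolyl 3-hydroxylase group gave no call between KO and WT, in either segment or over both. P3h1, Crtap and Ppib form the complex that hydroxylates a single proline of fibrillar collagen chains, and Ppib (cyclophilin B) is also a prolyl isomerase. P3h2 is best known for basement membrane collagens, and P3h3 and P3h4 act with the lysyl hydroxylase Plod1. All 6 were tested, and their log2 differences over both segments ran from -0.20 for Ppib (95% interval -0.39 to -0.02, adjusted p = 0.143) to 0.23 for P3h4 (95% interval 0.05 to 0.41, adjusted p = 0.0957). P3h1 was at 9.28 and 9.13 in KO ascending aorta, against 9.14 and 8.78 in WT ascending aorta, and at 9.36 and 9.23 in KO descending aorta, against 9.03 and 9.14 in WT descending aorta. The ascending groups of P3h1 overlapped and the descending groups did not. Both KO arrays of Ppib lay below both WT arrays in each segment, at 10.99 and 11.11 in KO ascending against 11.18 and 11.27 in WT ascending, and at 11.29 and 11.06 in KO descending against 11.42 and 11.40 in WT descending aorta. The intervals of P3h2 (-0.28 to 0.08), P3h3 (-0.17 to 0.24) and Crtap (-0.27 to 0.09) each held 0. A trended and robust prior in limma called Ppib lower (adjusted p = 0.0287) and P3h4 higher (0.0401) over both segments, and no other of the 6 was called between KO and WT under any alternative tried.

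Among the lysyl hydroxylases, Plod2 rose and Plod1 was not called. Plod2 hydroxylates the telopeptide lysines at the chain ends, which lysyl oxidase then oxidises, whereas Plod1 acts on lysines of the helix. Plod2 was at 9.33 and 9.42 in KO ascending aorta, against 8.73 and 8.69 in WT ascending aorta. Plod2 was at 9.54 and 9.32 in KO descending aorta, against 8.40 and 8.54 in WT descending aorta. All 4 KO arrays of Plod2 lay above all 4 WT arrays. Plod2 was 1.58-fold higher in the ascending (log2 difference 0.66, SE 0.11, adjusted p = 0.0258), 1.94-fold higher in the descending (0.96, SE 0.11, adjusted p = 0.00968) and 1.75-fold higher over both segments (0.81, SE 0.08, adjusted p = 0.00158). The ascending call of Plod2 was lost without any 1 ascending array (adjusted p = 0.092 to 0.12), and the descending call without KO or WT descending replicate 1 (0.0543 and 0.0912).

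Plod1 was at 7.19 and 7.42 in KO ascending aorta, against 7.36 and 7.25 in WT ascending aorta, and at 7.66 and 7.75 in KO descending aorta, against 7.78 and 7.53 in WT descending aorta. The groups overlapped in both segments, and the log2 difference over both was 0.02 (95% interval -0.19 to 0.23). Colgalt1, which adds galactose to hydroxylysine, was at 8.79 and 8.75 in KO ascending aorta, against 8.36 and 8.32 in WT ascending aorta. Colgalt1 was at 8.77 and 8.81 in KO descending aorta, against 8.33 and 8.56 in WT descending aorta. The KO arrays of Colgalt1 were tightly grouped and all lay above the WT arrays. It was 1.30-fold higher over both segments (log2 difference 0.38, SE 0.08, adjusted p = 0.0182), with adjusted p = 0.0811 in the ascending and 0.147 in the descending aorta. That call of Colgalt1 was lost without KO ascending replicate 1, WT ascending replicate 2, either KO descending array or WT descending replicate 1 (adjusted p = 0.0504 to 0.0649).

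Of the 7 tested chaperones, isomerases and export factors, 3 rose over both segments and none fell, against 6.21% and 5.22% of all genes tested. The median log2 difference of the 7 was 0.07, with 4 above 0 and 3 below. Fkbp14 (FKBP22) is a prolyl isomerase of the endoplasmic reticulum whose loss causes a form of Ehlers-Danlos syndrome in people. It was at 7.66 and 7.85 in KO ascending aorta, against 6.97 and 6.78 in WT ascending aorta. Fkbp14 was at 8.04 and 7.53 in KO descending aorta, against 7.12 and 7.03 in WT descending aorta. All 4 KO arrays of Fkbp14 lay above the WT arrays, with the descending KO pools wider apart than the others. Its log2 difference was 0.88 in the ascending (SE 0.17, adjusted p = 0.0362), 0.71 in the descending (SE 0.17, adjusted p = 0.0718) and 0.80 over both segments (SE 0.12, adjusted p = 0.0066). The ascending call of Fkbp14 was lost without any 1 ascending or WT descending array (adjusted p = 0.0654 to 0.164).

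Fkbp11, an isomerase of secretory cells, was at 7.89 and 8.01 in KO ascending aorta, against 7.71 and 7.43 in WT ascending aorta. Fkbp11 was at 8.48 and 8.22 in KO descending aorta, against 7.49 and 7.64 in WT descending aorta. No KO array of Fkbp11 was as low as a WT array. The log2 difference of Fkbp11 was 0.38 in the ascending (SE 0.14, adjusted p = 0.184), 0.79 in the descending (SE 0.14, adjusted p = 0.0347) and 0.58 over both segments (SE 0.10, adjusted p = 0.00989). The descending call of Fkbp11 was lost without any 1 descending or KO ascending array (adjusted p = 0.0533 to 0.202). Liver genes were higher in the KO descending pools (7 of 9 markers called): Alb was at 9.05 and 10.20 there, against 7.61 and 7.20 in WT descending aorta. The part of these liver genes in the Fkbp11 difference was not tested.

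Serpinh1 (HSP47), the chaperone that binds the folded procollagen helix, was at 10.26 and 10.28 in KO ascending aorta, against 10.03 and 9.84 in WT ascending aorta. Serpinh1 was at 10.40 and 10.25 in KO descending aorta, against 10.05 and 10.03 in WT descending aorta. The groups did not overlap. Serpinh1 was 1.24-fold higher over both segments (log2 difference 0.31, SE 0.08, adjusted p = 0.0377), and that call was lost without any 1 array except WT ascending replicate 1 (adjusted p = 0.0566 to 0.113). The other 4 of this group were not called: the isomerases Fkbp7 and Fkbp9, Mia3 (TANGO1), which loads procollagen at exit sites, and Tmem38b, an ion channel of the endoplasmic reticulum. Their differences over both segments ran from -0.12 for Tmem38b (95% interval -0.32 to 0.08) to 0.07 for Fkbp9 (-0.09 to 0.23).

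**Figure D2:**
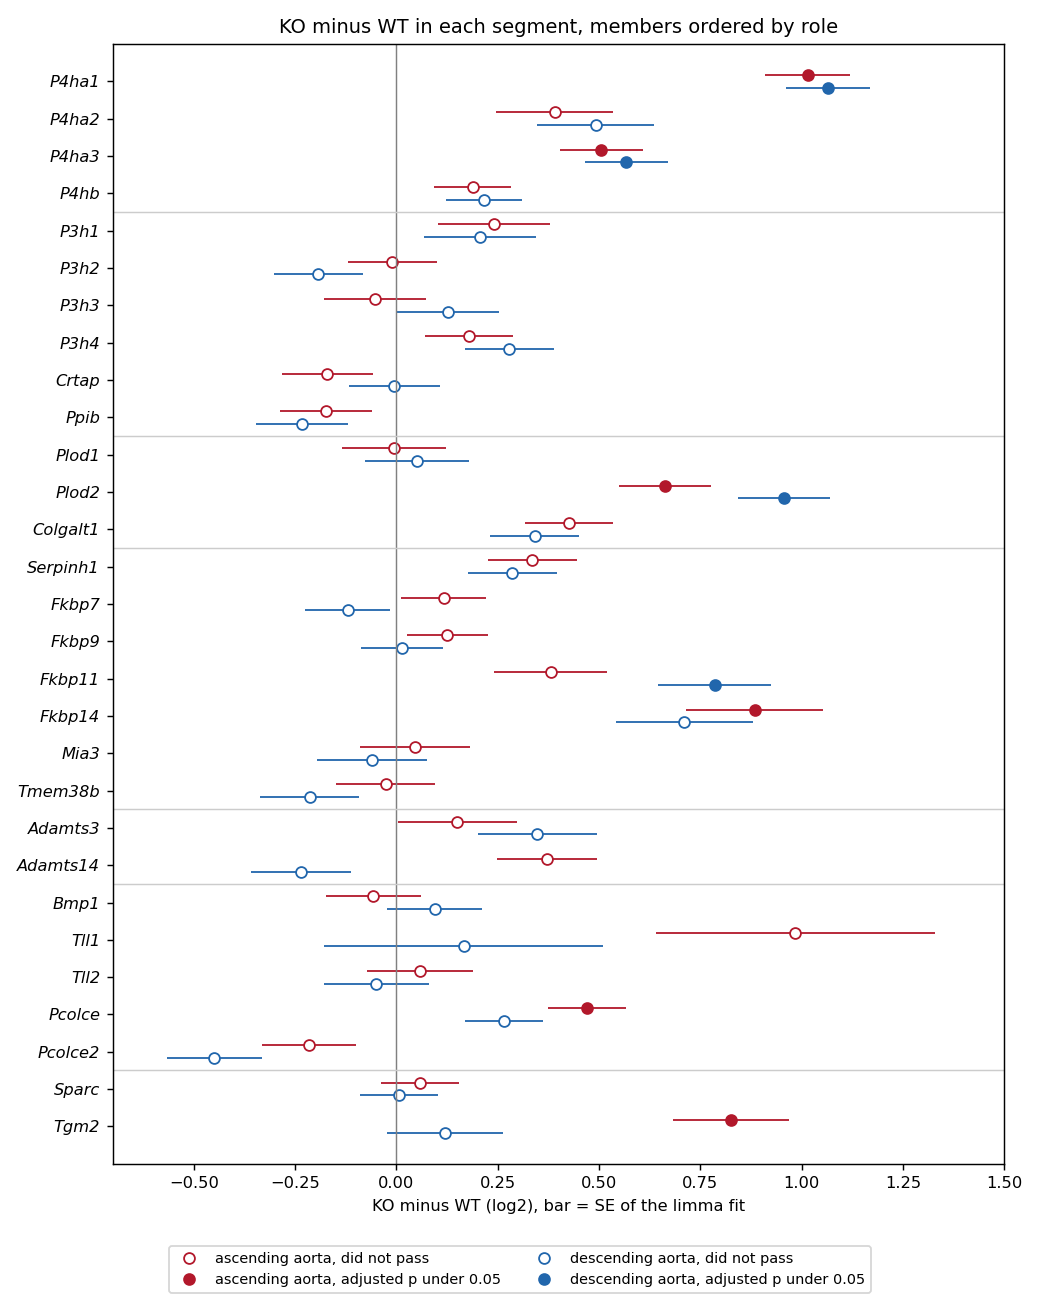
Log2 difference of KO minus WT in the ascending (red) and descending (blue) aorta for the 29 tested members, ordered by role, with bars of 1 SE from limma and filled marks for calls at an adjusted p under 0.05. P4ha1 lay at 1.01 in the ascending and 1.06 in the descending aorta with both marks filled, and the prolyl 3-hydroxylase group had no filled mark.

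The procollagen N-proteinases were not called. Adamts3 was at 5.86 and 5.43 in KO ascending aorta, against 5.41 and 5.58 in WT ascending aorta, and at 5.82 and 5.86 in KO descending aorta, against 5.46 and 5.53 in WT descending aorta. Adamts14 was at 7.71 and 7.86 in KO ascending aorta, against 7.30 and 7.52 in WT ascending aorta. Adamts14 was at 7.63 and 7.53 in KO descending aorta, against 7.90 and 7.73 in WT descending aorta. The KO arrays of Adamts14 were thus the higher ones in the ascending and the lower ones in the descending segment. A dimmer second probe set of Adamts14 was at 6.24 and 6.34 in KO descending aorta, against 6.11 and 6.30 in WT descending aorta, so the probe sets disagreed on the descending direction.

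The C-proteinases Bmp1, Tll1 and Tll2 were not called either. Bmp1, which also activates the lysyl oxidase precursor, was at 7.88 and 8.13 in KO ascending aorta, against 8.01 and 8.10 in WT ascending aorta. Its difference over both segments was 0.02 (95% interval -0.17 to 0.21). Tll1 was at 5.58 and 6.91 in KO ascending aorta, against 5.25 and 5.27 in WT ascending aorta, so 1 pool set most of its difference of 0.98 (SE 0.34, adjusted p = 0.168). Without KO ascending replicate 2 the ascending difference of Tll1 was 0.32 (adjusted p = 0.353), and without replicate 1 it was 1.65 and called (0.0125). The enhancers of C-proteinase cleavage differed in direction. Pcolce was at 10.51 and 10.56 in KO ascending aorta, against 10.06 and 10.06 in WT ascending aorta. Pcolce was at 10.93 and 10.86 in KO descending aorta, against 10.59 and 10.67 in WT descending aorta. Its log2 difference was 0.47 in the ascending (SE 0.10, adjusted p = 0.0456), 0.27 in the descending (SE 0.10, adjusted p = 0.191) and 0.37 over both segments (SE 0.07, adjusted p = 0.0136). The ascending call of Pcolce was lost without any 1 of the 8 arrays (adjusted p = 0.0649 to 0.165), and the call over both segments without WT descending replicate 1 (0.056).

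Pcolce2, its paralog, was at 9.34 and 9.34 in KO ascending aorta, against 9.56 and 9.55 in WT ascending aorta. Pcolce2 was at 8.82 and 8.53 in KO descending aorta, against 9.10 and 9.14 in WT descending aorta. Each KO array of Pcolce2 lay below the WT arrays of its segment. Pcolce2 fell by 0.33 on the log2 scale over both segments (SE 0.08, adjusted p = 0.0373), with -0.22 (SE 0.12, adjusted p = 0.359) in the ascending and -0.45 (SE 0.12, adjusted p = 0.0898) in the descending aorta. The call was lost without any 1 array except KO descending replicate 1 (adjusted p = 0.0832 to 0.0977).

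Of the extracellular partners, Tgm2 rose in the ascending aorta and Sparc was not called. Tgm2 (tissue transglutaminase) forms glutamine-lysine cross-links in matrix proteins, independently of lysyl oxidase. Tgm2 was at 8.60 and 8.95 in KO ascending aorta, against 7.85 and 8.06 in WT ascending aorta. Tgm2 was at 8.59 and 8.41 in KO descending aorta, against 8.37 and 8.39 in WT descending aorta. The gap was wide in the ascending and narrow in the descending segment. Tgm2 was 1.77-fold higher in the ascending aorta (log2 difference 0.83, SE 0.14, adjusted p = 0.0265), with a log2 difference of 0.12 in the descending aorta (SE 0.14, adjusted p = 0.707) and 0.47 over both (SE 0.10, adjusted p = 0.0219). The ascending call of Tgm2 was lost without KO ascending replicate 2, either WT ascending array or either WT descending array (adjusted p = 0.0525 to 0.11). The call over both segments was lost without KO ascending replicate 2, WT ascending replicate 1, KO descending replicate 1 or either WT descending array (0.0556 to 0.0748).

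Markers of neutrophils and platelets moved beside Tgm2. In the ascending aorta 5 of 8 neutrophil and 4 of 6 platelet markers were called higher in KO, against 1.54% of all genes tested. None of these 14 markers was called lower, against 1.19%. In the same comparison 1 of 6 erythroid and 1 of 8 macrophage markers were called higher. Of 8 lymphocyte markers 0 were called, with a median log2 difference of -0.53. The summed linear signal of the neutrophil markers was 3157 to 3281 in KO ascending and 543 to 975 in WT ascending aorta. In the descending aorta it was 1737 to 2751 in KO and 884 to 1313 in WT, with 0 of 8 called. S100a8 and S100a9, the brightest of these neutrophil markers, made up most of each sum. The part of blood cells in the Tgm2 difference was not tested. Sparc, which binds collagen and guides fibril assembly, was at 11.95 and 11.99 in KO ascending aorta, against 11.89 and 11.93 in WT ascending aorta. Its difference over both segments was 0.03 (95% interval -0.12 to 0.19).

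Within single segments fewer members passed. In the ascending aorta 6 of 29 rose (Fkbp14, P4ha1, P4ha3, Pcolce, Plod2 and Tgm2) and 0 fell, against 1.54% of all genes tested called higher and 1.19% lower. In the descending aorta 4 rose (Fkbp11, P4ha1, P4ha3 and Plod2) and 0 fell, against 1.46% higher and 0.823% lower. P4ha1, P4ha3 and Plod2 were called in both. By separation of the arrays, 17 of 29 members had both KO arrays above both WT arrays in the ascending aorta, against 25.6% of all genes tested, and 3 had them below, against 23.9%. The counts in the descending aorta were 16 above, against 25.6%, and 6 below, against 25.5%. In all, 12 of 29 members had both KO arrays above both WT arrays in each segment, against 12.8% of all genes tested, and 2 had them below, against 12.4%. The median log2 difference of the members was 0.18 in the ascending and 0.13 in the descending aorta, against 0.01 and -0.01 over all genes tested. Fits without 1 array called fewer of all genes tested in each segment, as well as fewer members. Without 1 array the ascending count was 1 without KO ascending replicate 2 or either WT ascending array, 2 without either WT descending array, 3 without KO ascending replicate 1 and 4 without either KO descending array. The descending count was 0 without WT descending replicate 1, 1 without KO descending replicate 1, 2 without either KO ascending array, KO descending replicate 2 or WT descending replicate 2, and 3 without either WT ascending array.

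**Figure D3:**
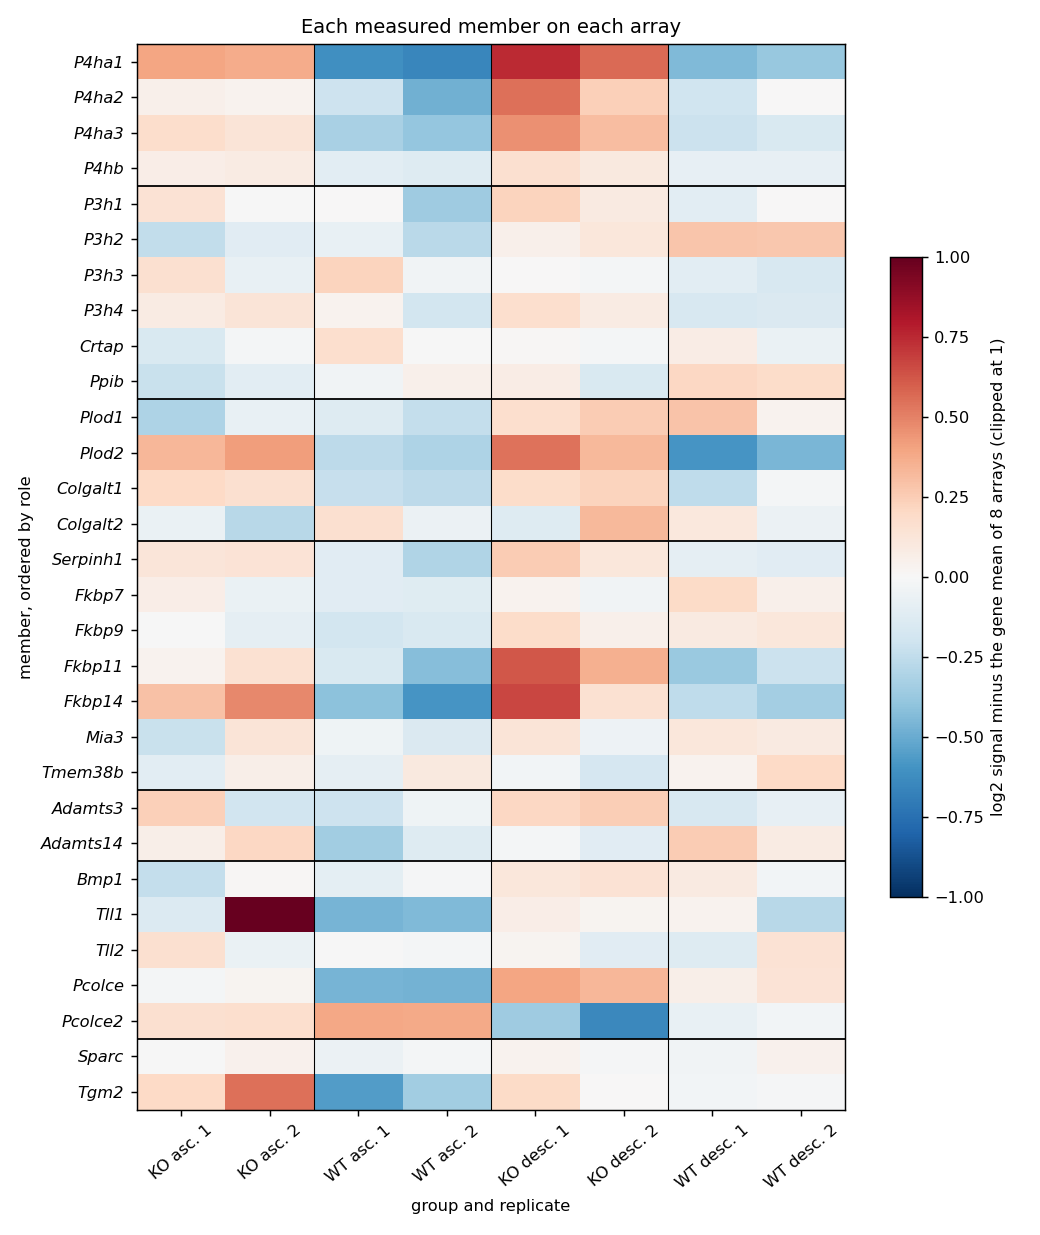
Heat map of the 30 measured members (rows, by role) on the 8 arrays (columns), each cell the log2 signal minus that gene's mean over the 8 arrays, with colours clipped at 1. P4ha1, P4ha3, Plod2 and Fkbp14 are above their mean in all 4 KO arrays, and the single high value of Tll1 is in KO ascending replicate 2.

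Whether the genotype difference itself differed between segments was asked with the interaction. It called 0 of 29 members, against 0.0% of all genes tested in limma's moderated test. At an unadjusted p under 0.05 it held 2 members and 5.6% of all genes tested. One was Tgm2, whose KO minus WT difference was 0.71 larger in the ascending aorta (SE 0.20, limma's unadjusted p = 0.00736, adjusted p = 0.775). The other was Adamts14, at 0.61 from its brighter probe set (SE 0.17, limma's unadjusted p = 0.00764, adjusted p = 0.775). The dimmer probe set of Adamts14 overlapped between KO (6.24 and 6.34) and WT (6.11 and 6.30) in the descending aorta. No member was therefore shown to respond more in one segment than in the other.

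Position along the aorta was compared within genotypes. In KO aorta 1 member was called higher in the ascending than in the descending segment, against 0.547% of all genes tested, and 0 were called lower, against 0.938%. It was Pcolce2 (log2 difference 0.67, SE 0.12, adjusted p = 0.0341). In WT aorta 0 members were called higher in the ascending segment, against 0.511% of all genes tested, and 1 was called lower, against 0.974%. It was Pcolce (-0.57, SE 0.10, adjusted p = 0.0291). Over both genotypes 1 member was higher in the ascending aorta, against 1.5% of all genes tested, and 2 were lower, against 2.57%. The enhancers thus had opposite positions, Pcolce2 higher in the ascending (0.55, SE 0.08, adjusted p = 0.00796) and Pcolce lower there (-0.47, SE 0.07, adjusted p = 0.00731). Both calls over both genotypes were kept without any 1 array. The KO call of Pcolce2 was lost without any 1 array except KO descending replicate 1 (adjusted p = 0.0593 to 0.17), and the WT call of Pcolce without any 1 WT array (0.109 to 0.183).

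P3h2 was at 7.10 and 7.24 in KO ascending aorta, against 7.40 and 7.46 in KO descending aorta, and at 7.28 and 7.08 in WT ascending aorta, against 7.63 and 7.62 in WT descending aorta. It was lower in the ascending segment over both genotypes (-0.35, SE 0.08, adjusted p = 0.0434), and that call was lost without any 1 array (adjusted p = 0.0574 to 0.135). P4ha1 had an ascending minus descending difference of -0.25 over both genotypes and was not called (adjusted p = 0.121). In KO aorta 3 members had both ascending arrays above both descending arrays, against 20.2% of all genes tested, and 10 had them below, against 20.8%. In WT aorta the counts were 3 above, against 19.8%, and 15 below, against 22.6%. Of the 29 members, 8 had both ascending arrays below both descending arrays in each genotype, against 8.06% of all genes tested, and 1 had them above, against 6.73%.

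Genes of neighbouring pathways were read as lists, beside the members. These lists too were chosen with earlier results of these data known. Their counts stand beside the 6.21% higher and 5.22% lower among all genes tested over both segments. Of 11 fibrillar collagen genes, the substrates of these enzymes, 1 rose and 0 fell, with a median of 0.09. The riser was Col11a1, the alpha1 chain of collagen XI (1.51, SE 0.08, adjusted p = 0.00012), while Col1a1 was at 0.20 (SE 0.07, adjusted p = 0.115). Of 37 tested genes in a list of procollagen export and activation, 9 rose and 0 fell. The list also holds other matrix genes, such as Fn1, Postn and F13a1. The genes that rose include Txndc5, a disulfide isomerase (0.52, SE 0.07, adjusted p = 0.00514), and F13a1, the factor XIII transglutaminase (0.59, SE 0.07, adjusted p = 0.00369). Sec23b, a COPII coat subunit, was at 0.27 (SE 0.09, adjusted p = 0.0826).

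Of 23 genes of general endoplasmic reticulum chaperones and of the unfolded protein response, 8 rose and 0 fell, with a median of 0.21. Hyou1, a large chaperone induced under stress of the endoplasmic reticulum and by low oxygen, rose by 0.77 (SE 0.07, adjusted p = 0.00116) and Sdf2l1 by 0.73 (SE 0.10, adjusted p = 0.00558), while Hsp90b1 was at 0.19 (SE 0.07, adjusted p = 0.113). Of 23 hypoxia and glycolysis genes, 12 rose and 1 fell, with a median of 0.33. Slc2a1, the glucose transporter GLUT1, rose by 0.69 (SE 0.09, adjusted p = 0.00451) and Slc16a3, a lactate exporter, by 0.84 (SE 0.11, adjusted p = 0.00497), while Pfkp was at 0.02 (SE 0.07, adjusted p = 0.907). Of 11 TGF-beta pathway and target genes, 7 rose and 1 fell, with a median of 0.53. Ltbp2 rose by 0.57 (SE 0.07, adjusted p = 0.00295) and Ccn2 (CTGF) by 0.61 (SE 0.09, adjusted p = 0.00539), while Tgfb1 itself was at -0.04 (SE 0.14, adjusted p = 0.897). Of 4 lysyl oxidase family genes tested, Lox fell and Loxl3 rose (0.41, SE 0.07, adjusted p = 0.00989), and Loxl1 was at 0.17 (SE 0.08, adjusted p = 0.232).

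**Figure D4:**
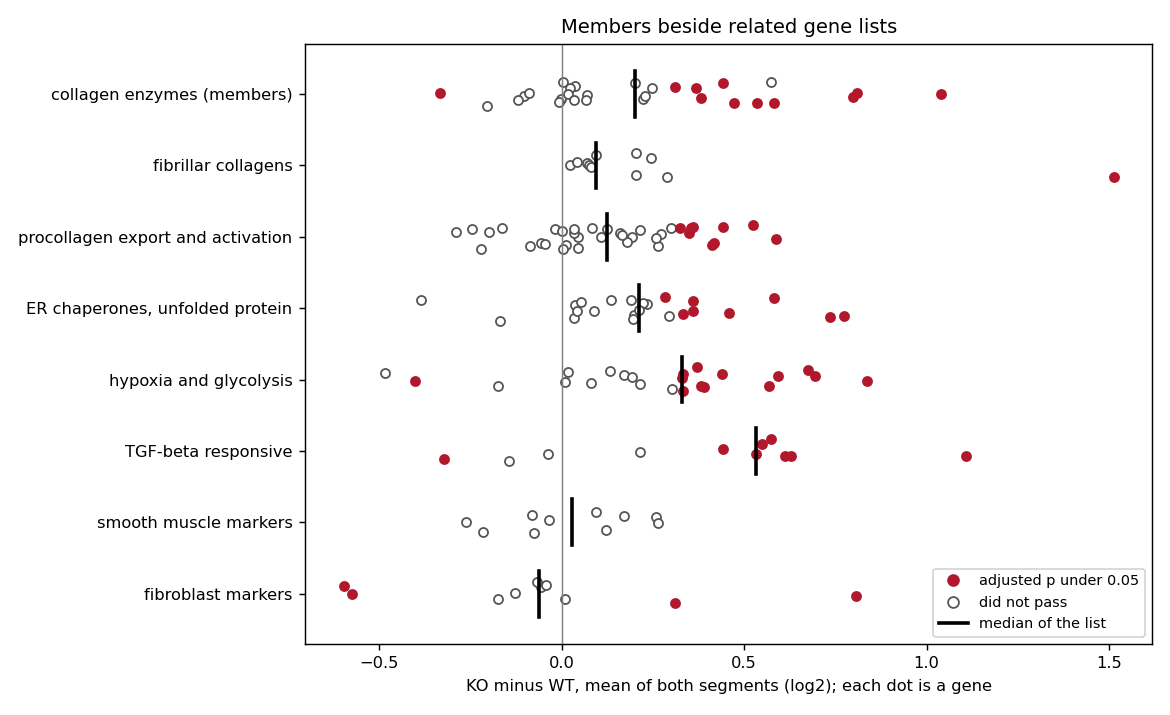
Log2 difference of KO minus WT over both segments for each tested gene of the members, of 5 pathway lists and of smooth muscle and fibroblast markers, with 1 dot per gene (filled at an adjusted p under 0.05) and a bar at each median. The medians were 0.20 for the members, 0.09 for the fibrillar collagens, 0.33 for the hypoxia and glycolysis genes and 0.53 for the TGF-beta genes.

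The cell content of the pools was read from marker lists, since in bulk tissue fewer cells of a type and less RNA per cell cannot be told apart. A summed signal is set mostly by the brightest probe sets of its list. For the fibroblast markers, the median log2 difference over both segments was -0.06. Smooth muscle markers gave no call in 10, with a summed signal of 16785 to 18695 in KO ascending, 17670 to 17731 in WT ascending, 17602 to 18774 in KO descending and 17725 to 18301 in WT descending aorta. The 10 fibroblast markers summed to less in KO, at 12062 to 12509 in KO ascending and 14170 to 14597 in WT ascending aorta, and at 11718 to 12507 in KO descending and 13671 to 14101 in WT descending aorta, with 2 called higher and 2 lower over both segments. Endothelial markers were called lower in KO for 5 of 10 genes over both segments, and summed to 3781 to 3782 in KO ascending, 4593 to 4872 in WT ascending, 4556 to 4654 in KO descending and 5488 to 5757 in WT descending aorta. Osteoblast markers summed to 194 to 214 in KO and 213 to 251 in WT aorta over both segments, with Ibsp and Dmp1 dim. Fat markers were called lower in KO for 5 of 7 genes over both segments, and summed to 3536 to 4496 in KO ascending, 6692 to 8370 in WT ascending, 7143 to 8171 in KO descending and 10447 to 10800 in WT descending aorta. Macrophage markers were called higher in KO for 4 of 8 genes, and summed to 3088 to 3346 in KO ascending, 2721 to 2736 in WT ascending, 3705 to 3756 in KO descending and 3062 to 3213 in WT descending aorta. Liver markers summed to 1320 to 1415 in KO ascending, 992 to 1004 in WT ascending, 1620 to 4013 in KO descending and 472 to 639 in WT descending aorta, and 8 of 9 were called higher over both segments. Lung markers summed to 157 to 166 in KO descending and 723 to 1503 in WT descending aorta, and 2 of 6 were called lower there. Neutrophil markers were called higher in KO for 6 of 8 genes over both segments (median log2 difference 1.18), and platelet markers for 4 of 6 (0.36). Over both segments 1 of 6 erythroid markers was called higher and 1 of 10 chondrocyte markers lower, and no tested marker of osteoblasts, striated muscle, lymphocytes or neurons was called. The part of these cells in the members' differences was not tested.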

How the data were processed

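Log2 intensities, summarised by RMA in Affymetrix Expression Console per the submitters' processing notes (their versions: not given in the sources used here), were analysed as the authors deposited them: 41345 probe sets on 8 arrays. Per the labels, RNA was amplified with NuGEN kits, and sample groups came from the titles. A probe set was used where the platform table gave it 1 gene symbol (23525 probe sets), and each gene kept the probe set with the highest mean. Genes with a mean under the 25th percentile (4.11) were left out, which left 16638. The limma package (3.58.1, R 4.3.3) was fitted with 1 coefficient per group over all 8 arrays (residual df 4, prior df 4.51). Calls were made at a Benjamini-Hochberg adjusted p under 0.05 over these genes, and the scripts were tested on simulated data. The number of arrays limits the precision.

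The members and the other gene lists were chosen with earlier results of these data known. All members could be named, those called in full, and of each list outside them the 2 called genes of smallest p and 1 that did not pass. Alternatives were the filter on dim genes, cyclic loess, the prior, averaging all probe sets of a gene, a replicate block, the compared arrays alone and leaving out each array.

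Promoters came from RefSeq (GRCm38.p6). Replicate numbers in the labels are tied to no litter or day, and same-numbered arrays did not deviate together in every pair of groups (r = -0.10 to 0.13), so arrays were not paired.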

Additional observations from a re-analysis of the deposited data

How the results depend on the processing

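In the ascending KO against WT comparison, 6 members were called, 1 to 4 with 1 array left out and 1 with only the arrays compared. In the descending comparison the count was 4, and it was 0 to 3 with 1 array left out, 2 with no filter on dim genes, 2 with only the arrays compared and 7 with a trended and robust prior. Over both segments 11 were called, and 5 to 9 with 1 array left out. Between segments, 1 member was called in KO aorta and 1 in WT aorta, and each count was 0 to 1 with 1 array left out, 0 with only the arrays compared and 2 with the trended and robust prior. No filter gave 0 in KO aorta. Over both genotypes 3 were called, 2 with 1 array left out and 5 with the trended and robust prior. The interaction called 0 members under each alternative tried. With the replicate number as a block, the descending count was 2, without P4ha3 (adjusted p = 0.0532) and Fkbp11 (0.0512), and the ascending count was 4, without P4ha3 (0.0596) and Pcolce (0.0645). The block also ended the P3h2 call between segments over both genotypes (0.0674). Calls over all genes moved with the setting too. In the descending comparison 0.699% of all genes were called with no filter, 0.631% with only the arrays compared and 5.52% with the trended and robust prior. In the ascending comparison 0.601% were called with only the arrays compared. Leaving out any 1 array lowered the count over all genes in every comparison but the interaction. Of 376 alternative values for called members, 257 kept their call, 119 kept their direction without it and 0 changed direction. Direction could change only with cyclic loess or with an array of the comparison left out. The other alternatives leave the log2 differences of the called members unchanged, so the absence of reversals says little. The cause of the lost and gained calls was not tested, except that leaving out arrays, or using only those compared, leaves fewer samples in the fit. The descending Pcolce2, Fkbp14 and Pcolce differences were called with the trended and robust prior (adjusted p = 0.0212, 0.0217 and 0.0395), as was the averaged P4hb difference. A filter at the 50th percentile also called the descending Pcolce2 (adjusted p = 0.0477) and Fkbp14 (0.0389) differences and the averaged P4hb difference (0.0484). The number of pools, 2 per group, limits what could be detected.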
